A study of Mus musculus with 17 samples.

Results

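A set of 10 genes of triglyceride synthesis and lipolysis was followed in RNA sequencing of mouse liver and of hepatocytes isolated from mice. The genes were chosen by symbol for their known enzyme roles, with earlier results of these data known. Gpam, Agpat2, Lpin1, Lpin2, Mogat1, Dgat1 and Dgat2 build triglyceride, and Pnpla2, Pnpla3 and Lipc are lipases or relatives of lipases. All 10 were found among the 49315 genes of the liver files and among the 15632 genes listed in at least 1 hepatocyte file. In liver all 10 passed the filter on low counts, and in hepatocytes 9 did. The 8 liver libraries came from mice given a high-fat diet and fructose in the drinking water for 16 weeks, 4 wild type (WT, numbered 1 to 4) and 4 labelled SMSrKO (5 to 8), in which Samd8, the gene of the sphingomyelin synthase-related protein SMSr, was targeted. The 9 hepatocyte libraries came from mice of 2 months, whose diet the labels do not give. They were 3 WT (1 to 3), 3 labelled Sms1/Sms2-dKO (4 to 6), in which the sphingomyelin synthase genes Sgms1 and Sgms2 were targeted, and 3 labelled Sms1/Sms2/Smsr-tKO (7 to 9), in which Samd8 was targeted as well. The cells were freed with collagenase. The labels name no Cre, promoter or strain.

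Triglyceride is the neutral fat that hepatocytes store in lipid droplets and export in very low density lipoprotein. It is built on glycerol 3-phosphate, which receives a fatty acid at each of its free positions by a GPAT and then an AGPAT enzyme, loses its phosphate to a lipin, and receives the last fatty acid from a DGAT enzyme at the endoplasmic reticulum. A side route makes the diacylglycerol from monoacylglycerol with an MGAT enzyme. Breakdown starts with the lipase ATGL, the product of Pnpla2, on the droplet, while hepatic lipase, the product of Lipc, acts outside the cell on lipoproteins. SMSr and the sphingomyelin synthases handle the same intermediate, diacylglycerol, which they release while making sphingolipids.

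A liver library held between 24391627 and 47351126 counts, and a hepatocyte library between 9221488 and 9665309 expected counts. The hepatocyte libraries of a group were far closer to each other, with a biological coefficient of variation of 3.52% against 20.3% in liver. The labels do not say that the liver replicates were different mice. The titles of the hepatocyte samples number the replicates and name no separate mice either. The p-values therefore rest on the spread among the sequenced samples, part of which may be technical. Among the targeted genes, Sgms2 alone had less RNA under its label, in hepatocytes, and most of it remained. It stood at 183 ± 7.69 CPM (counts scaled by library size, SD, n = 3) in WT, 150 ± 15.8 in dKO and 149.6 ± 7.12 in tKO. Samd8 in liver stood at 42.6 ± 6.38 CPM (SD, n = 4) in WT and 54.2 ± 3.67 (n = 4) under SMSrKO. Counts cover whole genes and would not show the loss of a part, so the groups are called by their labels. The extraction notes name white fat (sWAT) for the SMSrKO experiment. In the liver libraries 8 hepatocyte markers summed to 49250 to 64400 CPM in WT and 72500 to 81700 under SMSrKO. The 7 adipocyte markers summed to 14.0 to 23.0 CPM in WT and 8.91 to 12.4 under SMSrKO, with Lep at 0 in both groups. Neither sum overlapped between the groups. Of the adipocyte markers Fabp4 was lower under SMSrKO, at 9.33 ± 0.868 CPM against 16.9 ± 2.86 (−0.86 ± 0.136, edgeR adjusted p = 0.0434, over all alternatives 2.44e-05 to 0.165), a call made in 5 of 14 alternatives. It was lost when any library but WT 1 was left out. The part of these in the members' values was not tested.

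Promoter windows of 3 genes are shown because the results turn on them and the promoter set used here held a window for each. They are Gpam, the member that fell furthest in hepatocytes, and Lpin1 and Pnpla3, the members that stood highest together in liver library WT 1. Each window holds the 250 bases before a RefSeq start on GRCm38.p6, read on the gene's strand. Capitals mark matches, on either strand, to the letters CACGTG (the E-box), TCACNCCAC (a sterol element bound by SREBP) or AGGTCA (an element of nuclear receptors).
Gpam, chr19:55099478-55099727, minus strand: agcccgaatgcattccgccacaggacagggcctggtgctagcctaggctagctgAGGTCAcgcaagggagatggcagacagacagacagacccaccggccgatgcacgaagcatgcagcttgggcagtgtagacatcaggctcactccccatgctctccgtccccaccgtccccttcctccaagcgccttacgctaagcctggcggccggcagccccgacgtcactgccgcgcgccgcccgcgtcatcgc
Lpin1, chr12:16610967-16611216, minus strand: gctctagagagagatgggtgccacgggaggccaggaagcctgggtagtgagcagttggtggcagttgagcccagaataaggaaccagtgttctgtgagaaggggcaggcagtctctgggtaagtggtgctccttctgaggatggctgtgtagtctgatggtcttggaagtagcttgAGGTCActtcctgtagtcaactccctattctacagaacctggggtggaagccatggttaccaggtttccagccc
Pnpla3, chr15:84167566-84167815, plus strand: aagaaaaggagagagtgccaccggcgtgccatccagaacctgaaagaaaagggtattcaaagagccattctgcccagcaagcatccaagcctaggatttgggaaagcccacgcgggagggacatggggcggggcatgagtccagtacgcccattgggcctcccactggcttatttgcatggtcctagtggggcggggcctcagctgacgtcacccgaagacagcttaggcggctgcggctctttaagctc
Of these windows, those of Gpam and Lpin1 held AGGTCA, and that of Pnpla3 held none of the 3 motifs. RefSeq gives Gpam another start, whose window (chr19:55127239-55127488) lies 27787 bases from the gene as the liver files give it and held none of them either. Over all 32851 windows of the table, AGGTCA was found in 14.0%, CACGTG in 6.02% and TCACNCCAC in 1.05%. Promoters of 8 members, all but Dgat1 and Dgat2, were matched by symbol, with 12 windows in all, of which 3 held AGGTCA, 1 held CACGTG and 0 held TCACNCCAC. The Pnpla3 window ends where the gene begins in the liver files, and that of Gpam lies 26 bases from it. The Lpin1 window lies 21196 bases outside the gene as the liver files give it, so it is the start of a longer transcript. A match says only that the letters are present.

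The first question was whether liver on the fructose and high-fat diet differed in these enzymes under SMSrKO. In edgeR's quasi-likelihood test, 0 of 10 members passed the threshold of 0.05 on the adjusted p, against 0.234% of the 15820 genes tested. Counted without adjustment at 0.05 there was 1 member, Pnpla3, and DESeq2 called 0 of the 9 members to which it gave an adjusted p. The groups did not overlap for 0 of 10 members and for 8.12% of all genes. The median log2 fold change was −0.11 over the 10 members and −0.01 over all genes tested. A single WT library lay apart from the others for most of the set, and its values are given gene by gene.

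Pnpla3 (chromosome 15, 84167816 to 84189512, plus strand) encodes adiponutrin, a droplet protein related to ATGL whose gene is a known target of SREBP1c. It stood at 95.5 CPM in WT 1, at 3.41, 3.12 and 2.99 CPM in WT 2, 3 and 4, and at 1.96, 1.74, 2.75 and 3.20 CPM in SMSrKO 5 to 8. A single WT library was high, and the other 7 lay between 1.74 and 3.41 CPM. The level in WT 1 was 32.0 times the median of the other 7, the fourth highest such ratio among 13200 genes. The log2 fold change of SMSrKO over WT was −3.44 ± 1.32 (SE, edgeR adjusted p = 0.332). Without WT 1 it was −0.39 ± 0.239 (edgeR adjusted p = 0.502, over all alternatives 0.277 to 0.578).

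Lpin1 (chromosome 12, 16535669 to 16589770, minus strand) encodes lipin 1, a phosphatidate phosphatase that also acts as a coactivator of fat oxidation genes. Its level was 405 CPM in WT 1, 88.7, 103 and 94.5 CPM in WT 2, 3 and 4, and 90.6, 102, 74.9 and 116 CPM in SMSrKO 5 to 8. Again WT 1 alone was high, 4.29 times the median of the other libraries, and those overlapped fully. The log2 fold change was −0.85 ± 0.520 (edgeR adjusted p = 0.527) and turned to 0.0087 ± 0.142 without WT 1 (edgeR adjusted p = 0.985, over all alternatives 0.446 to 0.985). Lpin2 (chromosome 17, 71182560 to 71249817, plus strand), the lipin that leads in liver, went the other way in that library, with 298 CPM in WT 1, 505, 414 and 491 in WT 2, 3 and 4, and 358 to 537 CPM under SMSrKO. Per length, Lpin1 made up 72.7% of the lipin RNA (TPM of Lpin1, Lpin2 and Lpin3) in WT 1, against 26.5%, 33.9% and 28.3% in WT 2, 3 and 4 and a mean of 30.3% ± 4.18 (SD, n = 4) under SMSrKO.

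Mogat1 (chromosome 1, 78510991 to 78538173, plus strand) makes diacylglycerol from monoacylglycerol and is known to rise in fatty liver. WT 1 had the lowest level, 0.668 CPM, while WT 2, 3 and 4 had 7.62, 13.1 and 8.45 CPM and SMSrKO 5 to 8 had 3.61, 6.05, 2.55 and 2.02 CPM. The 4 SMSrKO libraries thus lay between WT 1 and the other WT libraries. The log2 fold change was −1.06 ± 0.736 (edgeR adjusted p = 0.575), and −1.47 ± 0.364 without WT 1 (edgeR adjusted p = 0.125, over all alternatives 0.125 to 0.774), so neither passed the threshold. Without WT 1 the groups did not overlap, with 9.72 ± 2.95 CPM (SD, n = 3) in WT and 3.56 ± 1.79 (n = 4) under SMSrKO. The share of all genes without overlap in that setting was not counted.

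The other members showed smaller departures in WT 1. Gpam (chromosome 19, 55069734 to 55099451, minus strand), which encodes the mitochondrial enzyme GPAT1, had 198 CPM in WT 1, 127, 134 and 116 in WT 2, 3 and 4, and 124 to 149.9 CPM under SMSrKO. Agpat2 (chromosome 2, 26593057 to 26604417, minus strand), the acyltransferase lost in a form of inherited lipodystrophy, had 241 CPM in WT 1 and 131 to 219 CPM in the other 7 libraries. Dgat2 (chromosome 7, 99153658 to 99182719, minus strand), the DGAT enzyme tied to newly made fat, had 952 CPM in WT 1 and 541 to 906 CPM in the rest. The lipase genes lay on the other side. Pnpla2 (chromosome 7, 141455198 to 141460743, plus strand) had 58.4 CPM in WT 1, 117, 108 and 105 in WT 2, 3 and 4, and 97.8 to 109 CPM under SMSrKO. Lipc (chromosome 9, 70798128 to 70952226, minus strand) had 108 CPM in WT 1 and 159 to 232 CPM in the other libraries. Only Dgat1 (chromosome 15, 76502015 to 76511951, minus strand), the DGAT enzyme that re-esterifies fatty acids, lay within the range of the others in WT 1, at 28.2 CPM against 25.9 to 32.8 CPM.

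**Figure D1:**
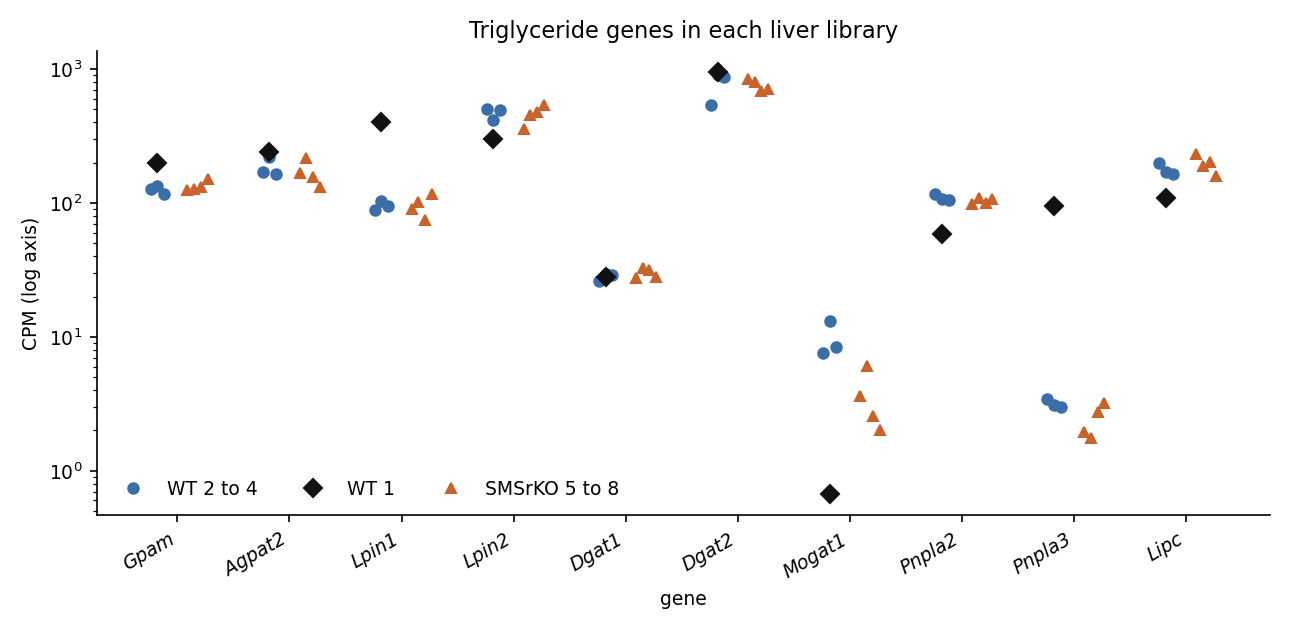
Level of the 10 genes in each liver library, in CPM on a log axis, with WT 1 as black diamonds, WT 2 to 4 as blue circles and SMSrKO 5 to 8 as orange triangles. WT 1 stands alone at 95.5 CPM for Pnpla3 and 405 CPM for Lpin1 and lowest at 0.668 CPM for Mogat1, while WT 2 to 4 and SMSrKO overlap for most genes.

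In all, WT 1 lay outside the range of the other 7 libraries for 9 of 10 members. It did so for 42.0% of all 15820 genes tested, and each other library lay outside for 20.1% to 26.9% of genes and for 1 to 3 members. Gpam, Agpat2, Lpin1, Dgat2 and Pnpla3 were highest there, and Lpin2, Mogat1, Pnpla2 and Lipc were lowest. The sum of 8 hepatocyte markers was 64100 CPM in WT 1, within the 49250 to 81700 CPM of the others. The stellate cell sum was 279 CPM against 347 to 589.8, the cholangiocyte sum 33.3 against 52.0 to 108 and the immediate early sum 198 against 218 to 438 CPM, each lowest in WT 1. The part of these in the members' values was not tested.

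Other genes of the pathway in liver were read from 10 lists with 68 genes, of which 64 passed the filter and 0 passed the threshold in edgeR's quasi-likelihood test with all 8 libraries. Without adjustment 8 of the 64 were under 0.05, and DESeq2 called 0. In WT 1, 13 of the 64 were above and 26 below the other 7 libraries, 60.9% together. The genes named here were chosen after their values were seen. Srebf1, whose product SREBP1c switches on fat synthesis genes, stood at 1481 CPM in WT 1 and at 244 to 494 CPM in the rest. Insig1, which retains SREBP in the endoplasmic reticulum and is itself a target of SREBP, stood at 522.5 CPM against 48.8 to 105. Angptl8, an insulin-induced regulator of lipoprotein lipase, stood at 274 CPM against 15.7 to 59.2. Pnpla5, another relative of Pnpla3, stood at 4.03 CPM against 0 to 0.163. Pparg, the gene of the nuclear receptor PPARγ, was lowest in the same library at 10.6 CPM against 17.3 to 28.9. Of the other regulators on the lists, Klf15 was highest in WT 1 at 277 CPM against 118 to 255, and Ppara lowest at 183 against 251 to 341. Mlxipl, Nr1h3, Usf1, Insig2, Foxo1, Ppargc1a and Nr0b2 lay within the range of the rest. The droplet fusion protein Cidec stood at 3.34 CPM against 10.6 to 88.4, and the droplet coat protein Plin2 at 250.5 against 494 to 759.7 CPM. Other droplet and lipase genes did not share this order. The coat protein Plin5 was highest in WT 1 at 83.1 CPM against 57.3 to 81.3, and Lpl, lipoprotein lipase, lay within the range at 32.8 CPM against 30.5 to 103.6, as did Plin3 and Cideb. The carboxylesterases Ces1d, Ces1e, Ces1f and Ces1g, which act on triglyceride, were lowest there too, with Ces1g at 123 CPM against 246 to 392.

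**Figure D2:**
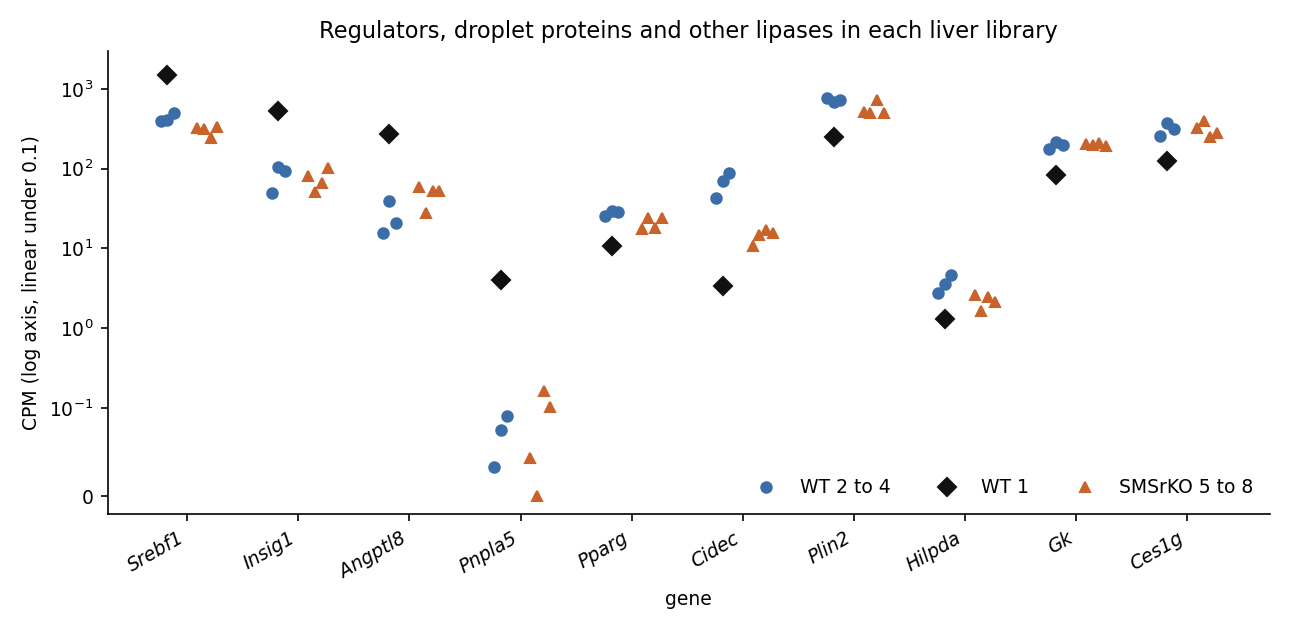
Level of 10 other pathway genes, chosen after their values were seen, in each liver library, in CPM on a log axis that is linear under 0.1, with the same symbols for WT 1, WT 2 to 4 and SMSrKO. WT 1 is the highest library for Srebf1, Insig1, Angptl8 and Pnpla5 and the lowest for Pparg, Cidec, Plin2, Hilpda, Gk and Ces1g.

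Like Mogat1, Cidec did not overlap between the groups once WT 1 was left out. This was not particular to them. Among others, Srebf1, Hilpda, Plin3 and Lipa were then lower under SMSrKO without overlap, and Klf15, Ppargc1a and Tm6sf2 higher. The share of all genes without overlap in that setting was not counted. Cidec had 42.2, 70.1 and 88.4 CPM in WT 2, 3 and 4 and 10.6, 14.8, 16.7 and 15.6 CPM in SMSrKO 5 to 8. Its log2 fold change was −1.82 ± 0.771 with all libraries (edgeR adjusted p = 0.375), and −2.21 ± 0.257 without WT 1 (edgeR adjusted p = 0.0186, over all alternatives 0.0186 to 0.623). It was the 1 pathway gene of 64 past the threshold in that setting, in which 0.682% of all genes were called. Pparg, with 17.3 to 24.0 CPM under SMSrKO and 25.4 to 28.9 CPM in WT 2 to 4, was lower by −0.40 ± 0.130 without WT 1 and did not pass (edgeR adjusted p = 0.197, over all alternatives 0.197 to 0.975). Of the markers of other cells, Fabp4 was lower by −0.95 ± 0.119 without WT 1 (edgeR adjusted p = 0.0117). The adipocyte sum, most of which is Fabp4 itself, was lower and the hepatocyte sum higher under SMSrKO with no overlap. The log2 fold change was negative for 8 of 8 macrophage markers with all libraries, at a median of −0.32, none of which passed (0 of 8). Their sums overlapped, at 708 to 999.7 CPM in WT and 474 to 1111 under SMSrKO. It was negative too for 8 of 8 endothelial, 6 of 8 stellate cell and 5 of 8 immediate early genes (medians −0.07, −0.21 and −0.72). It was positive for 5 of 7 lymphocyte and 4 of 6 cholangiocyte markers (medians 0.47 and 0.14), and none of these passed. The median over all genes tested was −0.01. The part of these in the level of Cidec was not tested.

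**Figure D3:**
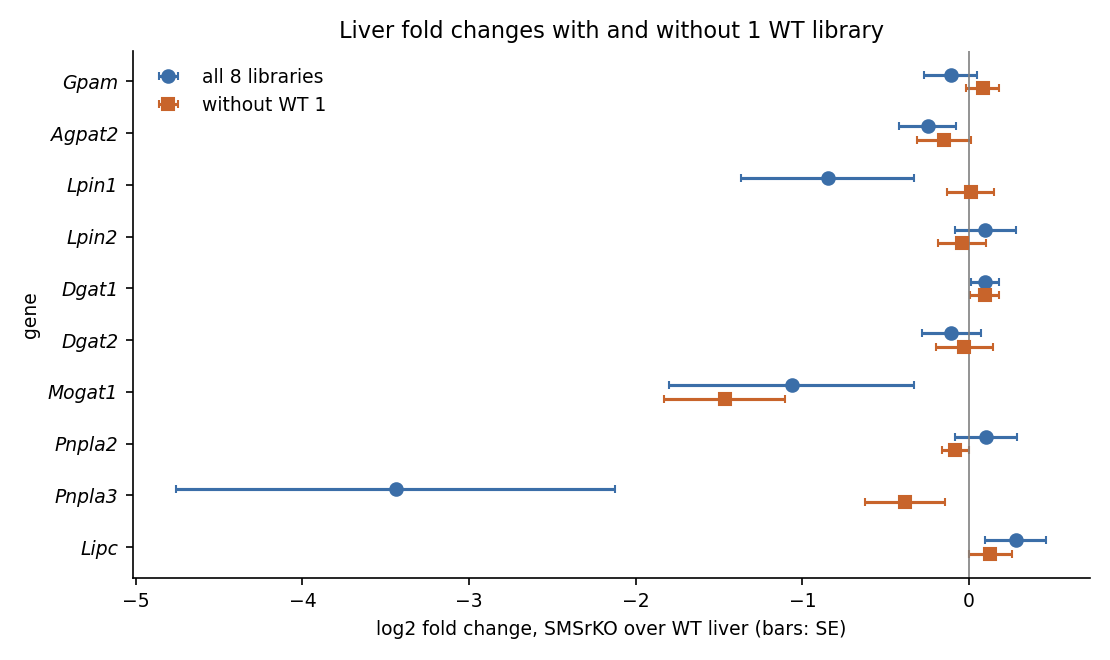
Log2 fold change of SMSrKO over WT liver for each gene, with its SE, from all 8 libraries (blue circles) and without WT 1 (orange squares). Leaving out WT 1 moves Pnpla3 from −3.44 to −0.39 and Lpin1 from −0.85 to 0.0087, and Mogat1 from −1.06 to −1.47.

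Per length, the order of the members in liver WT was led by Dgat2 at 591 ± 116.5 TPM (transcripts scaled by gene length and library size, SD, n = 4), followed by Agpat2 at 208 ± 27.3 and Lipc at 169 ± 47.5. Gpam (83.4 ± 17.3), Lpin2 (79.0 ± 21.4), Pnpla2 (72.5 ± 22.1) and Lpin1 (65.8 ± 55.6) came next and did not differ beyond their spread. Dgat1 followed at 20.7 ± 1.12, then Pnpla3 at 12.0 ± 20.9 and Mogat1 at 10.8 ± 7.21 TPM. The means of Lpin1 and Pnpla3 rest on WT 1. Over WT 2, 3 and 4 Lpin1 stood at 38.0 ± 1.07 TPM, below Gpam at 74.9 ± 4.35, while Mogat1 stood at 14.1 ± 3.51 and Pnpla3 was last at 1.57 ± 0.159 TPM (SD, n = 3). Under SMSrKO Dgat2 led as well, at 531 ± 33.9 TPM, and Pnpla3 was last at 1.13 ± 0.364 TPM. Dgat2 thus made up 96.5% ± 0.768 of the DGAT RNA in WT and 96.1% ± 0.506 under SMSrKO.

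In hepatocytes the comparisons set the libraries labelled dKO and tKO against WT and against each other. Sgms1 stood at 49.8 ± 3.34, 90.5 ± 5.55 and 58.7 ± 3.31 CPM in WT, dKO and tKO, and Samd8 at 69.7 ± 3.57, 81.6 ± 6.01 and 100.6 ± 2.94 CPM (SD, n = 3). Neither had less RNA in the groups whose label names it, so each direction below is that of the labels. Per length, Dgat2 led in WT at 143 ± 2.86 FPKM (fragments scaled by gene length and library size, SD, n = 3), followed by Lipc at 101 ± 2.45, Lpin2 at 70.5 ± 1.32, Agpat2 at 36.1 ± 1.33 and Pnpla2 at 25.2 ± 0.0964. Lpin1 at 13.5 ± 0.443 and Gpam at 12.7 ± 1.13 FPKM did not differ beyond their spread, Dgat1 stood at 10.3 ± 0.962, and Pnpla3 (0.303 ± 0.0404) and Mogat1 (0.153 ± 0.110) were near 0. The liver and hepatocyte tables were normalized separately and differ in diet and preparation, so levels are not compared across them. Mogat1 had 12 expected counts over the 9 libraries, from 0 to 3 in each, and was not tested.

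Against WT, 4 of 9 tested members rose in dKO, beside 24.0% of all 11471 genes tested, and 2 fell, beside 20.0%. The groups did not overlap for 6 members and for 51.9% of all genes. In tKO 3 members rose (25.6% of all genes) and 1 fell (21.8%), and the groups did not overlap for 8 members and for 53.4% of all genes. Between tKO and dKO, 2 members were higher in tKO (14.3% of all genes) and 4 lower (15.2%), and the groups did not overlap for 7 members and for 39.8% of all genes. The median log2 fold change of the 9 members was 0.11, 0.06 and −0.11 in these comparisons, and that of all genes tested was −0.01, −0.0035 and 0.0008. Both comparisons with WT share their control libraries, and tKO against dKO is the test of the difference between them. All tests below are edgeR's quasi-likelihood test unless another setting is named. The hepatocyte counts were also given the common dispersion of liver, which is larger, in edgeR's likelihood ratio test. The member calls that then remained were Dgat2 in dKO (adjusted p = 0.00429) and Dgat2 and Gpam in tKO against WT (0.0172 and 0.0224). In that setting 9.2%, 10.6% and 2.84% of all genes were called.

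Gpam fell in steps. The GPAT1 gene stood at 85.3, 72.4 and 75.1 CPM in WT 1 to 3, at 63.1, 59.2 and 64.1 CPM in dKO 4 to 6, and at 44.6, 44.9 and 48.3 CPM in tKO 7 to 9. The 3 groups did not overlap. The log2 fold change was −0.32 ± 0.0623 in dKO (edgeR adjusted p = 1.17e-05), −0.76 ± 0.0647 in tKO (edgeR adjusted p = 1.84e-17) and −0.44 ± 0.0666 from dKO to tKO (edgeR adjusted p = 1.14e-07). Gpam made up 24.3% ± 1.58 of the GPAT RNA per length in WT, 18.2% ± 0.782 in dKO and 16.5% ± 1.40 in tKO (SD, n = 3). Of the other GPAT genes, Gpat3, an enzyme of the endoplasmic reticulum, rose in dKO by 0.60 ± 0.0723 (edgeR adjusted p = 3.27e-11), from 36.9 ± 0.954 to 55.98 ± 2.05 CPM, and stood at 37.0 ± 4.16 CPM in tKO. Gpat4 led the step with 26.6, 26.5 and 26.3 FPKM.

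Agpat2 did not pass the threshold in any hepatocyte comparison. It stood at 53.4 to 57.1 CPM in WT, 55.3 to 62.3 in dKO and 57.9 to 62.2 in tKO, and its log2 fold change from WT to tKO was 0.14 ± 0.0642 (edgeR adjusted p = 0.0660, over all alternatives 0.0234 to 0.916). This passed in 4 of 17 alternatives, among them the fit without tKO 9. Of its relatives, Agpat5 rose in dKO by 0.52 ± 0.0593 and in tKO by 0.46 ± 0.0594 (edgeR adjusted p = 4.02e-12 and 3.12e-10), and Agpat3 fell by 0.21 ± 0.0547 and 0.24 ± 0.0545 (0.00115 and 1.71e-04).

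The lipins parted from each other. Lpin1 stood at 77.2, 72.3 and 75.7 CPM in WT, at 99.4, 99.6 and 100.4 CPM in dKO, and at 77.5, 79.2 and 78.4 CPM in tKO. Only the dKO libraries were high. It rose by 0.41 ± 0.0548 in dKO (edgeR adjusted p = 9.89e-10) and was lower in tKO than in dKO by −0.35 ± 0.0541 (edgeR adjusted p = 1.56e-07), while tKO and WT differed by 0.06 ± 0.0562 (edgeR adjusted p = 0.385). Lpin2 stood at 402, 398 and 413 CPM in WT, at 444, 445 and 417.5 CPM in dKO, and at 512, 497 and 486 CPM in tKO, highest in tKO with no overlap between the groups. It was higher in tKO than in WT by 0.30 ± 0.0385 (edgeR adjusted p = 1.80e-10) and than in dKO by 0.19 ± 0.0383 (edgeR adjusted p = 2.86e-05). The dKO to WT difference, 0.11 ± 0.0388 (edgeR adjusted p = 0.0182), was lost without hepatocyte library WT 1, WT 2, dKO 4 or dKO 5, at adjusted p from 0.0589 to 0.0955 (over all alternatives 0.0072 to 0.978). Lpin3, the least of the lipins here, fell by 1.13 ± 0.134 in dKO (edgeR adjusted p = 2.21e-11) and was higher in tKO than in dKO by 0.77 ± 0.139 (edgeR adjusted p = 5.85e-06).

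Dgat2 changed most among the members that rose. Its level was 311, 311 and 321 CPM in WT 1 to 3, 578, 560 and 593 CPM in dKO 4 to 6, and 536, 552 and 514 CPM in tKO 7 to 9. Every dKO and tKO library was above every WT library. It rose by 0.88 ± 0.0390 in dKO (edgeR adjusted p = 1.21e-33) and 0.76 ± 0.0390 in tKO (edgeR adjusted p = 5.84e-30). The tKO level was lower than that of dKO by −0.11 ± 0.0377 (edgeR adjusted p = 0.0166, over all alternatives 0.00743 to 1.0), a call made in 11 of 17 alternatives and lost, among others, without dKO 6 or tKO 9. Dgat1 stood at 18.2 to 21.6 CPM in WT, 15.6 to 19.1 in dKO and 15.0 to 19.7 in tKO and passed in no comparison. Its tKO to WT difference of −0.20 ± 0.106 (edgeR adjusted p = 0.115) passed without tKO 8 (−0.32, adjusted p = 0.0219, over all alternatives 0.0219 to 0.857). The RNA of the DGAT step summed to 153, 272 and 256 FPKM in WT, dKO and tKO, and the share of Dgat2 was 93.3% ± 0.456, 96.6% ± 0.395 and 96.5% ± 0.367.

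**Figure D4:**
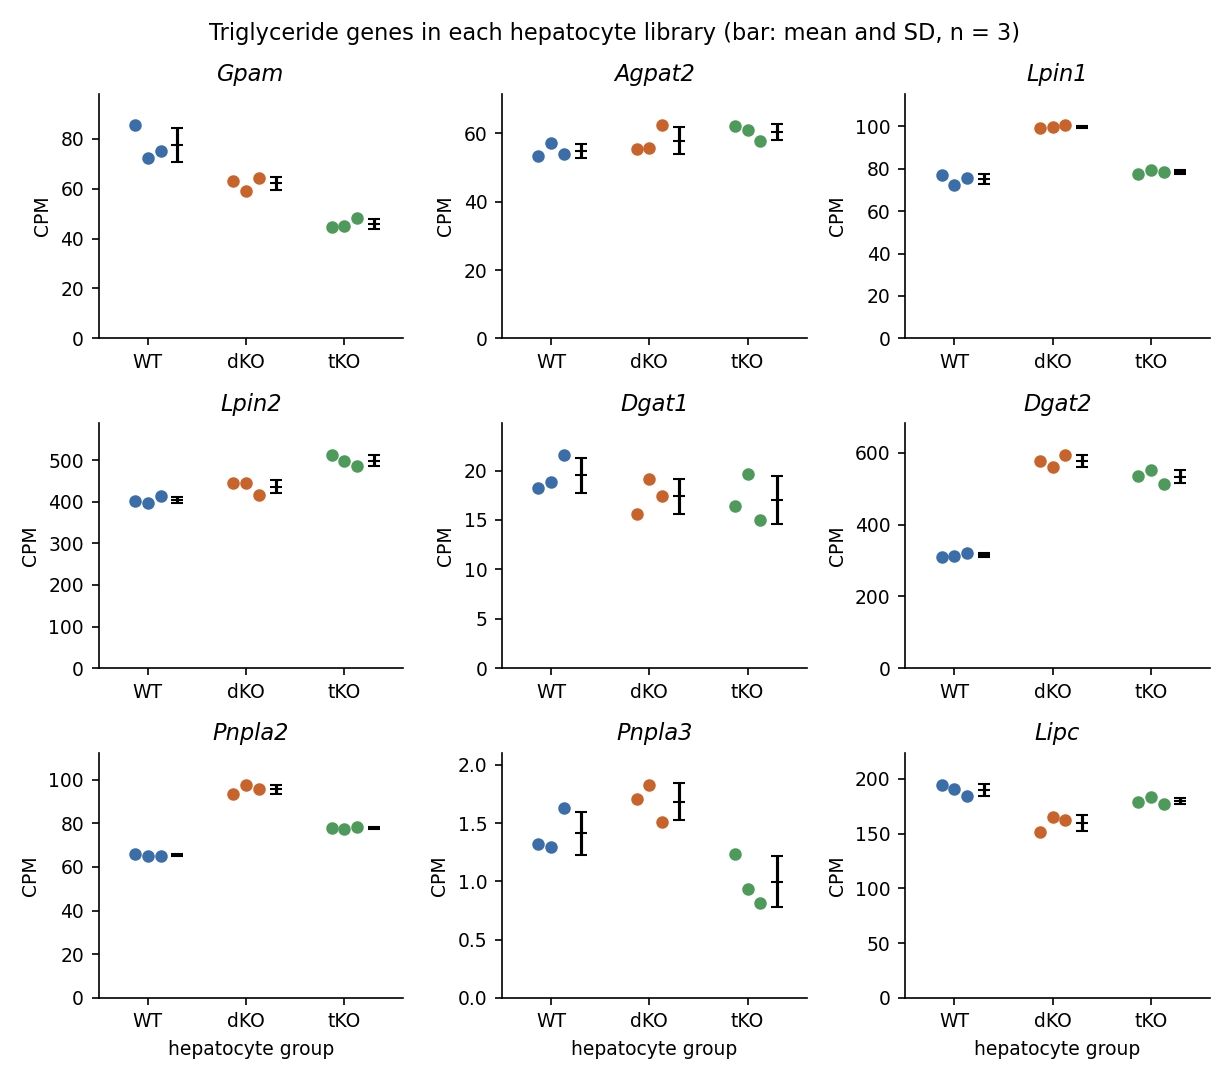
Level of 9 genes in each hepatocyte library, in CPM from 0, with points for libraries and bars for the mean and SD of 3 libraries. Dgat2 lies at 311 to 321 CPM in WT and at 514 to 593 CPM in both other groups, Gpam falls from WT to dKO to tKO, and Lpin1 is high in dKO alone at 99.4 to 100.4 CPM.

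Among the lipases, Pnpla2 stood at 65.8, 65.2 and 65.1 CPM in WT, at 93.2, 97.6 and 95.7 CPM in dKO, and at 78.0, 77.4 and 78.3 CPM in tKO. The 3 groups did not overlap, with tKO between the others. The ATGL gene rose by 0.55 ± 0.0562 in dKO (edgeR adjusted p = 7.46e-14) and 0.25 ± 0.0574 in tKO (edgeR adjusted p = 1.37e-04), and was lower in tKO than in dKO by −0.29 ± 0.0545 (edgeR adjusted p = 9.23e-06). Lipc stood at 194, 191 and 184 CPM in WT, at 151, 165 and 162 CPM in dKO, and at 179, 183 and 177 CPM in tKO. It fell by 0.25 ± 0.0457 in dKO (edgeR adjusted p = 3.24e-06) and was higher in tKO than in dKO by 0.17 ± 0.0457 (edgeR adjusted p = 0.00207), while tKO against WT was −0.08 ± 0.0450 (edgeR adjusted p = 0.145). Pnpla3 had 8 to 17 expected counts a library, 1.41 ± 0.184 CPM in WT, 1.68 ± 0.160 in dKO and 0.996 ± 0.219 in tKO. It passed in no comparison, with an edgeR adjusted p of 0.110 for tKO against dKO.

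**Figure D5:**
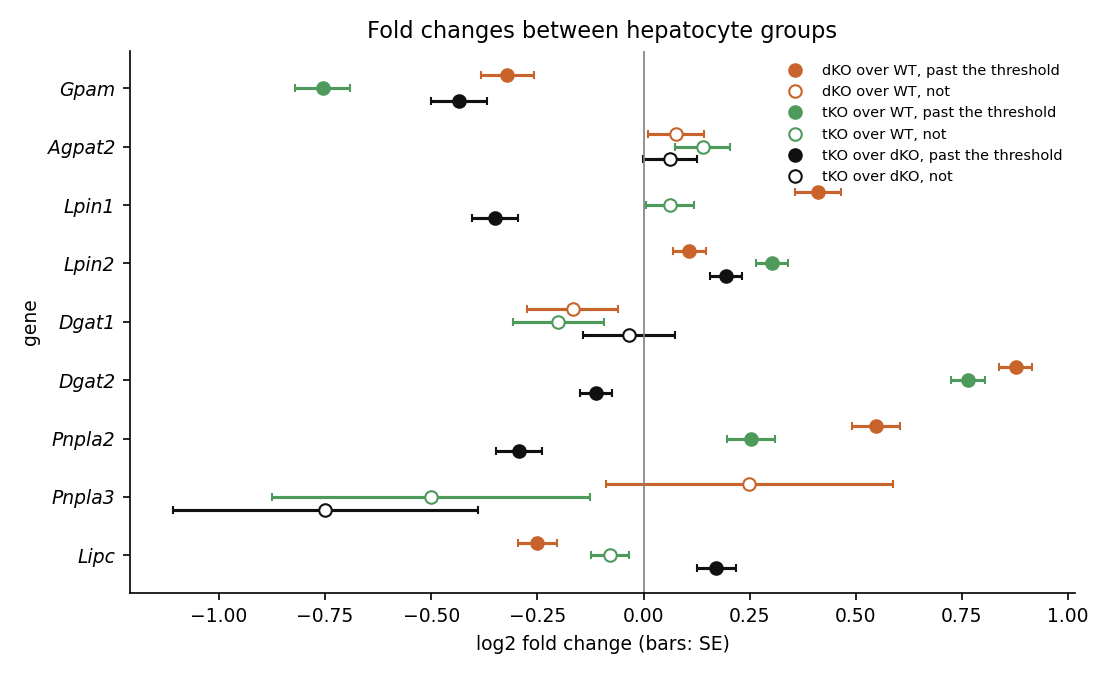
Log2 fold change of 9 genes between hepatocyte groups, with its SE, as filled circles where the edgeR adjusted p was under 0.05 and open circles where it was not. Gpam lies on the negative side in all 3 comparisons (−0.32, −0.76 and −0.44), and Dgat2 lies at 0.88 and 0.76 against WT and −0.11 between tKO and dKO.

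Around these enzymes, 63 genes of the 10 lists were tested in hepatocytes. In dKO 21 rose and 15 fell against WT (33.3% and 23.8%, beside 24.0% and 20.0% of all genes tested). In tKO 20 rose and 15 fell (31.7% and 23.8%, beside 25.6% and 21.8%), and 15 were higher and 16 lower in tKO than in dKO (23.8% and 25.4%, beside 14.3% and 15.2%). With the dispersion of liver, 6 of the genes that rose and 2 that fell kept their call in dKO, and also 6 and 2 in tKO, while 1 higher and 3 lower did between tKO and dKO. The triglyceride export genes Mttp, which loads lipid onto apolipoprotein B, and Apob fell in dKO by 0.67 ± 0.0542 and 0.34 ± 0.0387 (edgeR adjusted p = 1.12e-18 and 1.71e-10). All 3 export genes were higher in tKO than in dKO by edgeR's test, Mttp by 0.59 ± 0.0542 (edgeR adjusted p = 1.46e-15), and Mttp stood at 121 ± 5.03 CPM in tKO and 129 ± 9.31 in WT. The third, Tm6sf2, differed by 0.43 ± 0.169 (edgeR adjusted p = 0.0482, over all alternatives 0.0208 to 0.898), a call made in 10 of 17 alternatives and lost, among others, without dKO 6, tKO 7 or tKO 8. With the dispersion of liver 0 of these export calls remained. The fall of Mttp in dKO then had an edgeR adjusted p of 0.0601 (over all alternatives 8.19e-35 to 0.0601), and its difference between tKO and dKO one of 0.265 (1.41e-26 to 0.265). Gpd1, which makes glycerol 3-phosphate, followed the same course, at 80.3 ± 3.75 CPM in WT, 37.3 ± 0.745 in dKO and 81.7 ± 0.810 in tKO. It fell by 1.11 ± 0.0641 in dKO (edgeR adjusted p = 1.53e-26) and was higher by 1.13 ± 0.0636 in tKO than in dKO (edgeR adjusted p = 6.86e-27).

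Of 11 ATGL regulators and droplet proteins, 2 rose and 1 fell in dKO (18.2% and 9.09%, under the 24.0% and 20.0% of all genes), and 5 rose and 0 fell in tKO by edgeR's test (45.5%, beside 25.6% of all genes). None fell in tKO without adjustment or with DESeq2 either (0 of 11). Hilpda, an inhibitor of ATGL, rose from 32.96 ± 1.63 CPM in WT to 82.1 ± 3.20 in dKO and 67.5 ± 5.05 in tKO (1.32 ± 0.0678 and 1.03 ± 0.0692, edgeR adjusted p = 1.15e-29 and 5.17e-23). The droplet enzyme Hsd17b13 rose in dKO by 0.60 ± 0.0458 (edgeR adjusted p = 5.85e-20). Of 14 other intracellular lipases, 3 rose and 4 fell in dKO (21.4% and 28.6%), and 5 rose and 4 fell in tKO (35.7% and 28.6%). Ces1g rose by 1.03 ± 0.0525 and 0.98 ± 0.0524 in dKO and tKO (edgeR adjusted p = 6.20e-30 and 1.02e-28). Mgll, which cleaves monoacylglycerol, fell in tKO by 1.06 ± 0.103 (edgeR adjusted p = 5.31e-15). The carboxylesterase genes are related neighbours, and how reads were shared among them is not given in the sources used here.

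Of 7 genes of blood lipases and their regulators, 4 rose and 1 fell in dKO (57.1% and 14.3%), and 3 rose and 3 fell in tKO (42.9% each). Lpl was 0.543 ± 0.286 CPM in WT, 14.96 ± 0.519 in dKO and 21.7 ± 1.02 in tKO, a rise of 4.75 ± 0.230 and 5.29 ± 0.212 (edgeR adjusted p = 2.69e-31 and 1.03e-36). Gpihbp1, its anchor on capillary cells, was 0.325 ± 0.285, 2.04 ± 0.117 and 0.344 ± 0.161 CPM in the same order. Angptl4, an inhibitor of lipoprotein lipase, stood at 165 ± 0.619 CPM in dKO and 86.3 ± 0.821 in tKO (−0.94 ± 0.0506, edgeR adjusted p = 6.33e-28). It was also called lower in tKO than in WT, and both calls remained with the dispersion of liver. Among 12 transcriptional regulators, 7 rose and 2 fell in dKO (58.3% and 16.7%), and 5 rose and 4 fell in tKO (41.7% and 33.3%). Klf15 had a low level, at 0.832 ± 0.246 CPM in WT, 3.04 ± 0.492 in dKO and 3.02 ± 0.278 in tKO. It was up by 1.85 ± 0.327 and 1.84 ± 0.325 (edgeR adjusted p = 1.60e-06 and 1.42e-06). Over the alternatives, 17 of 17 of which called it, the rise ran from 0.72 to 1.98 in dKO and 0.78 to 1.97 in tKO. Ppargc1a, a coactivator of fasting genes, stood at 3.44 ± 0.213 CPM in WT, 9.95 ± 0.350 in dKO and 7.55 ± 1.08 in tKO. It rose in dKO by 1.53 ± 0.176 (edgeR adjusted p = 6.90e-12). Its rise in tKO against WT was called as well, and both calls remained with the dispersion of liver.

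Markers of other cells moved with the hepatocyte groups. The summed level of 8 endothelial markers was 22.8 to 24.1 CPM in WT, 145 to 162 in dKO and 84.0 to 86.6 in tKO, none of them at 0 in any group. By edgeR's test 8 of 8 rose in dKO and 7 of 8 in tKO. The sum of 8 macrophage markers was 122 to 137, 319 to 337 and 361 to 379 CPM, with Vsig4 at 0 in WT. The sum of 8 stellate cell markers was 15.9 to 19.9, 50.7 to 56.4 and 31.3 to 35.6 CPM, with Lrat at 0 in WT. The immediate early genes, which are known to rise when cells are isolated, summed to 772 to 851, 1353 to 1403 and 1231 to 1288 CPM, and all 8 rose in both dKO and tKO (8 of 8 by edgeR's test). The 8 hepatocyte markers summed to 58840 to 60880, 50440 to 51580 and 45710 to 48340 CPM. Single hepatocyte markers did not all share this fall. By edgeR's test 1 of 8 rose and 3 fell in dKO, and 3 rose and 3 fell in tKO. The sum of 7 adipocyte markers, of which 3 were found, was 3.47 to 4.60 CPM in WT, 12.7 to 16.2 in dKO and 9.56 to 14.2 in tKO, with Adipoq, Lep, Retn and Cfd at 0 in all groups and Plin1 at 0 in dKO and tKO. The sum of 6 cholangiocyte markers was 248.5 to 263, 376 to 395 and 246 to 261 CPM, highest in dKO. The single markers did not move together. Of the 3 tested by edgeR, 1 rose and 0 fell in dKO, and 1 rose and 1 fell in tKO. The 7 lymphocyte markers stayed between 0.108 and 1.25 CPM. The part of all these in the values of the members, of the droplet genes, and of Lpl and Gpihbp1 was not tested. In these bulk samples fewer cells of a type and less RNA per cell cannot be told apart.

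For each member the genes most alike in pattern over the 9 hepatocyte libraries were those with the smallest distance between centred log2 CPM values. For Lpin1 they were Gys2, liver glycogen synthase, at a distance of 0.106, and Slc26a1 at 0.141, where Lpin1 itself lay 0.547 from a flat profile. For Dgat2 (1.17 from flat) they were Ikbke at 0.138 and Tapbp at 0.175, and for Pnpla2 (0.670) Pxn at 0.101 and Irf1 at 0.117. For Gpam (0.948) they were Setd7 at 0.205 and Itih4 at 0.211. For Lpin2 (0.388) they were Ascc3 and Gtpbp4, and for Lipc (0.334) Dnaja3 and Slc20a2. These distances are a description over libraries that share 3 groups.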

How the data were processed

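RNA sequencing of 8 liver and 9 hepatocyte libraries was read from the authors' tables. For liver the authors deposited whole-number counts per Ensembl gene and a TPM table, which was recomputed from counts and lengths within 5e-05. The authors' hepatocyte files gave, for each Entrez gene, an expected count, which was rounded to a whole number (6.25% were not whole), and a deposited FPKM value. Genes missing from a hepatocyte file were set to 0. Per the submitters' processing notes, the tools included STAR 2.5.2b, Bowtie2 2.2.5 and Trimmomatic 0.36 and the builds were GRCm38 and mm10, and DESeq2 1.30.1 is also named. Which tool did what, how reads were counted and whether by strand is not stated there, and genes that overlap others on either strand are uncertain.

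Counts were tested with edgeR 4.0.16 (R 4.3.3) by the robust quasi-likelihood F test after filterByExpr (minimum count 10) and TMM scaling. The liver libraries formed 1 fit and the 9 hepatocyte libraries another. The Benjamini-Hochberg adjustment ran over all genes tested, with a threshold of 0.05. CPM is per TMM-scaled library total for single genes, and SE is the absolute fold change over the square root of F. Alternatives used DESeq2 1.42.0, limma 3.58.1, other scaling, no filter, the liver dispersion and each library left out in turn. With the liver dispersion, every hepatocyte gene was given the common dispersion of liver in edgeR's likelihood ratio test. The tests were tried on simulated data. No 2 libraries were identical. Within a group, replicates differed by 23.9 to 185 times the counting noise in liver and 1.56 to 2.76 times in hepatocytes. Python 3.11.15 with numpy 2.4.6, pandas 2.3.3 and matplotlib 3.10.9 made the tables and figures. Promoters came from RefSeq on GRCm38.p6, and their motifs were searched in the 250 bases before each start.

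The members and the gene lists were chosen with earlier results of these data known. All members are named in each comparison. From each other list up to 2 genes past the threshold with the largest fold change were eligible in a comparison, and up to 2 genes most alike each member. Exceptions are stated.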

Additional observations from a re-analysis of the deposited data

Results flagged for a closer look

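In WT liver, 1 library of 4 lay far from the other 3 for 2 members. Lpin1 stood at 405 CPM in WT 1, and its gap to the nearest library was 0.955 of the range of the group. Pnpla3 stood at 95.5 CPM in the same library, with a gap of 0.995 of the range. The check was run on 20 sets of a group and a member that were each tested for a lone library, and chance gives about 1 in 20. Both flags are the same library, which lay outside the other 7 for 42.0% of all genes tested. Sets that share libraries are not independent, so that rate cannot weigh the 2 flags.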

How the results depend on the processing

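In liver 0 of 10 members passed under any of the alternatives run. Leaving out WT 1 turned the sign of Gpam (0.081), Lpin1 (0.0087), Lpin2 (−0.0423) and Pnpla2 (−0.083). Over the 8 libraries left out in turn, the log2 fold changes ran from −0.20 to 0.081 for Gpam, −1.06 to 0.0087 for Lpin1, −0.0423 to 0.20 for Lpin2, −0.083 to 0.20 for Pnpla2 and −3.83 to −0.39 for Pnpla3. The genes called in liver numbered 37, against 476 with DESeq2, 136 without the filter, 18 and 18 with limma on log2(TPM + 1) and log2(TPM + 0.1), and 11 (without WT 4) to 109 (without WT 1) with a library left out. In hepatocytes the liver dispersion left 1 member higher and 0 lower in dKO, 1 higher and 1 lower in tKO, and 0 and 0 between tKO and dKO, with 1055, 1221 and 326 genes called in place of 5045, 5435 and 3382. That setting changed the test, to edgeR's likelihood ratio test, as well as the dispersion, and the part of each in the lost calls was not tested. With a library left out, 3 to 4 members were higher and 2 lower in dKO, 3 to 4 higher and 1 to 2 lower in tKO, and 2 higher and 3 to 4 lower between tKO and dKO, where Dgat1 ran from −0.15 to 0.0535 and turned to 0.0408 without dKO 5 and 0.0535 without tKO 9. Pnpla3 (hepatocytes) and Mogat1 are limited by low counts. No paired analysis was possible because the groups compared share no replicate number.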
